A study of Mus musculus with 12 samples.

Results

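Lipoproteins are the particles in which the liver ships triglyceride and cholesterol through the blood, and the genes described here encode their protein shells and the proteins that load them. The members are 10 named genes, Apoa1, Apoa2, Apoa4, Apoa5, Apob, Apoc3, Apoe, Apom, Mttp and Pltp, out of 19937 genes with a probe set that carries a single gene symbol. Each member had 1 such probe set, all 10 passed the filter on low values, and 17904 genes were tested. Liver RNA of 12 male C57Bl/6 mice was hybridised, 1 Affymetrix whole-transcript array per animal, in 4 groups of 3 separate animals. The groups were wild-type mice given vehicle, wild-type mice given dexamethasone, HDAC6 Y/- mice given vehicle and HDAC6 Y/- mice given dexamethasone. Injections were intraperitoneal for 3 weeks, with a dexamethasone dose of 1 mg/kg. Dexamethasone is a synthetic glucocorticoid, and HDAC6 Y/- males carry no intact copy of the X-linked deacetylase gene Hdac6 (called knockout below; how the allele was made was not given in the labels). All animals fed freely on a 12 h day and night cycle. The labels give neither the animals' age nor the hour of tissue collection.

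Hepatocytes build very-low-density lipoprotein (VLDL) by wrapping triglyceride with apolipoprotein B, and release apolipoproteins A that form high-density lipoprotein (HDL). In the circulation other apolipoproteins on the particles speed or slow the removal of triglyceride by lipoprotein lipase and uptake by receptors. Glucocorticoids are known to raise hepatic triglyceride output. In these data the members responded unequally: Apoa4 rose in both genotypes, Apoa5 fell in the knockout, Pltp fell in wild type, and the other 7 genes passed no test. The calls of Apoa5 and Pltp were lost in some alternative fits. For no member was the difference between the genotypes' responses called.

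Apoa1, Apoc3, Apoa4 and Apoa5 lie next to each other on chromosome 9, and 3 of their upstream sequences are shown because these neighbours responded unequally. Each is the 250 bases before the annotated start site, read 5′ to 3′ along the gene (RefSeq, GRCm38.p6, all on the plus strand): chr9:46228380-46228629 for Apoa1, chr9:46240594-46240843 for Apoa4 and chr9:46268358-46268607 for Apoa5, the first of its 2 listed start sites. Capitals mark matches, on either strand, to the glucocorticoid receptor half-site AGAACA, the nuclear receptor half-site AGGTCA, the E-box CACGTG and the TATA box TATAAA.
Apoa1: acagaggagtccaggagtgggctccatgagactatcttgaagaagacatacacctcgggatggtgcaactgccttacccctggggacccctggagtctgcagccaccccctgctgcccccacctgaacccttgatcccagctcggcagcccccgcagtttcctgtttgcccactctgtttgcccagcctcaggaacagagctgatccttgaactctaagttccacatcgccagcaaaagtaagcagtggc
Apoa4: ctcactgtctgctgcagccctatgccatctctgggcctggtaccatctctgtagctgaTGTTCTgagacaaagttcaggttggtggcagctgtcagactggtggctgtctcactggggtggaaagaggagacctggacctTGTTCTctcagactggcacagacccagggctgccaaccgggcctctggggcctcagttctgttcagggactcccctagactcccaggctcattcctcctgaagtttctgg
Apoa5: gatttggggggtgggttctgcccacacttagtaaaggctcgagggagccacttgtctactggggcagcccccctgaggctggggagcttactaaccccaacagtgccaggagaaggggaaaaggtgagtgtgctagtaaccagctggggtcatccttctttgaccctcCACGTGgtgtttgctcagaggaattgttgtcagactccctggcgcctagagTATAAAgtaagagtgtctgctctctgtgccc

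The Apoa4 sequence held 2 glucocorticoid receptor half-sites, both on the opposite strand, at positions -192 and -110 from the start site. Of 32851 windows of this length over all genes, 16.08% held at least 1 such half-site and 1.81% held 2 or more. The full palindrome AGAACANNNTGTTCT was found in 3 windows (0.01%) and in no window of a member. The Apoa5 sequence held 1 E-box, present in 6.02% of windows, and 1 TATA box, present in 12.37%. The Apoa1 sequence held no match. A half-site was also found once each upstream of Apoe and Mttp, whose transcripts passed no test. Upstream windows were found for 9 of the 10 members. A match of letters is a description of the sequence and does not show binding.

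The 12 arrays were close in scale, with medians of 3.13 to 3.24 and pairwise correlations of 0.974 to 0.991. Hdac6 lay between 3.62 and 4.40 in the knockout arrays and between 5.86 and 6.43 in the wild-type arrays, so the 6 arrays of each genotype did not overlap. The mean of 10 hepatocyte markers was 12.24 to 12.46 in every array, as the tissue label states. Exocrine pancreas markers (13 of 15 measured) averaged 3.13 to 3.50 in 8 arrays and 7.84 to 9.95 in the other 4. Of these 4, 2 were wild-type vehicle arrays (1 and 2), 1 was knockout vehicle 3 and 1 was wild-type dexamethasone 3. Values from a fit to the 8 arrays are given beside the results they touch; a single wild-type vehicle array then remains, and it is taken to vary as the other groups do. Intestinal markers, of interest because Apoa4 and Apob are also made in gut, stayed below 2.86 in every array for 9 of 10 genes; Fabp2 was at 7.57 to 8.82. Sis and Reg3g were below the 20th percentile in all 12 arrays.

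Levels below are deposited log2 intensities, each group mean with its SD over n = 3 arrays, and a difference of 1 is a doubling. Log2 changes carry the standard error (SE) of the limma fit to all 12 arrays, and a gene is called at an adjusted p under 0.05 over all genes tested. Levels of different genes are not compared, since probe sets differ in brightness. Where arrays of 2 groups are said not to overlap, this only describes them, since the share of all genes without overlap is not given here.

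**Figure D1:**
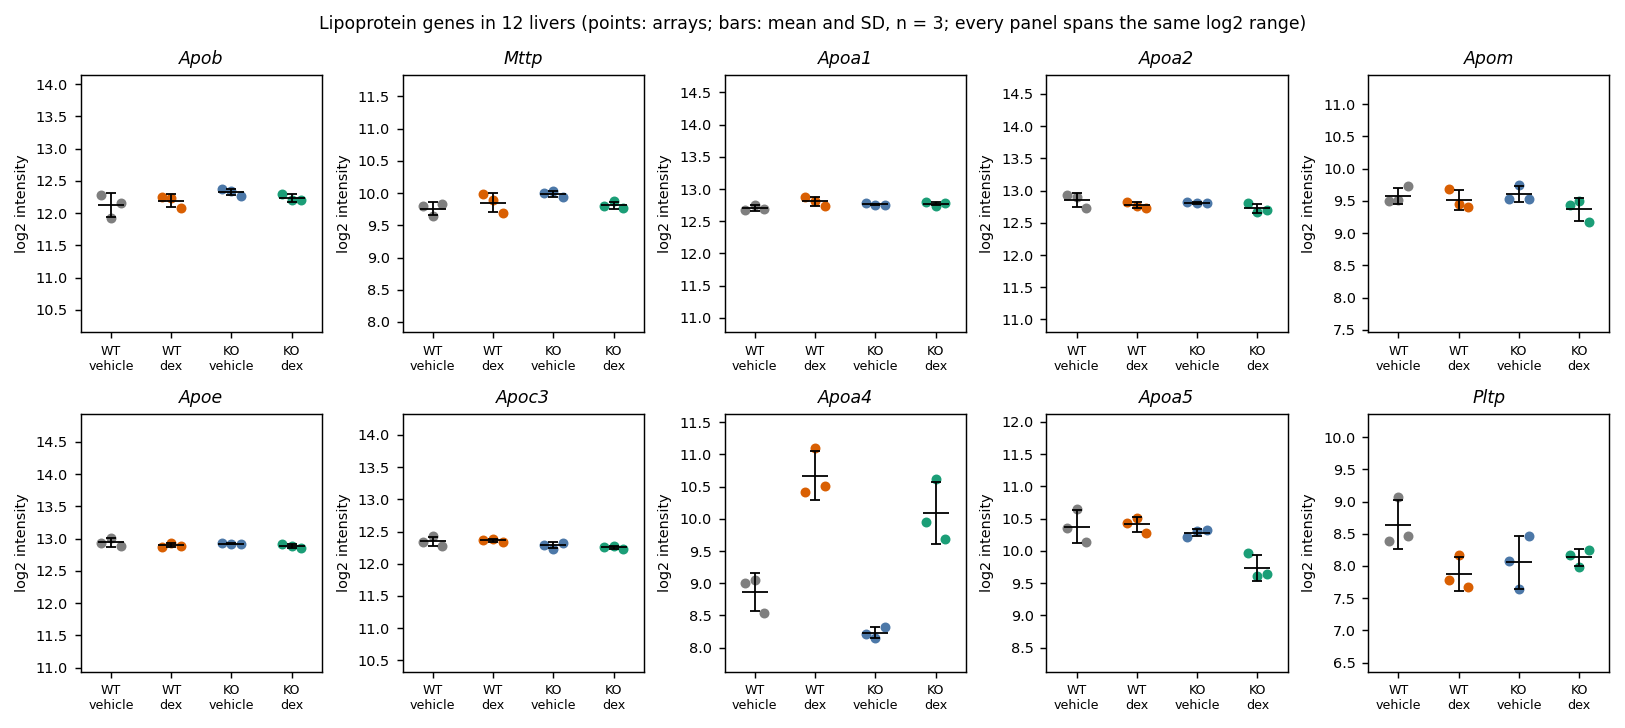
Log2 intensity of the 10 genes in 12 livers, by group (WT, wild type; KO, knockout; dex, dexamethasone). Points are arrays in order of their label number, bars are the mean and SD (n = 3), and every panel spans the same range of log2 units; Apoa4 ran from 8.15 to 11.10, Apoe only from 12.86 to 13.02.

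With dexamethasone in wild-type mice 1 of the 10 genes was higher (Apoa4) and 1 lower (Pltp), where 4.57% of all genes tested were called higher and 6.95% lower. In the knockout 1 was higher (Apoa4) and 1 lower (Apoa5), against 4.38% and 3.92% of all genes. With so few members these counts do not set the group apart from other genes. The members' median log2 change in wild type was 0.02, beside 0.01 over all genes. In the knockout it was -0.06, beside -0.01. Averaged over both genotypes, Apoa4 was the 1 member higher and 0 were lower, against 7.29% and 9.94% of all genes.

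**Figure D2:**
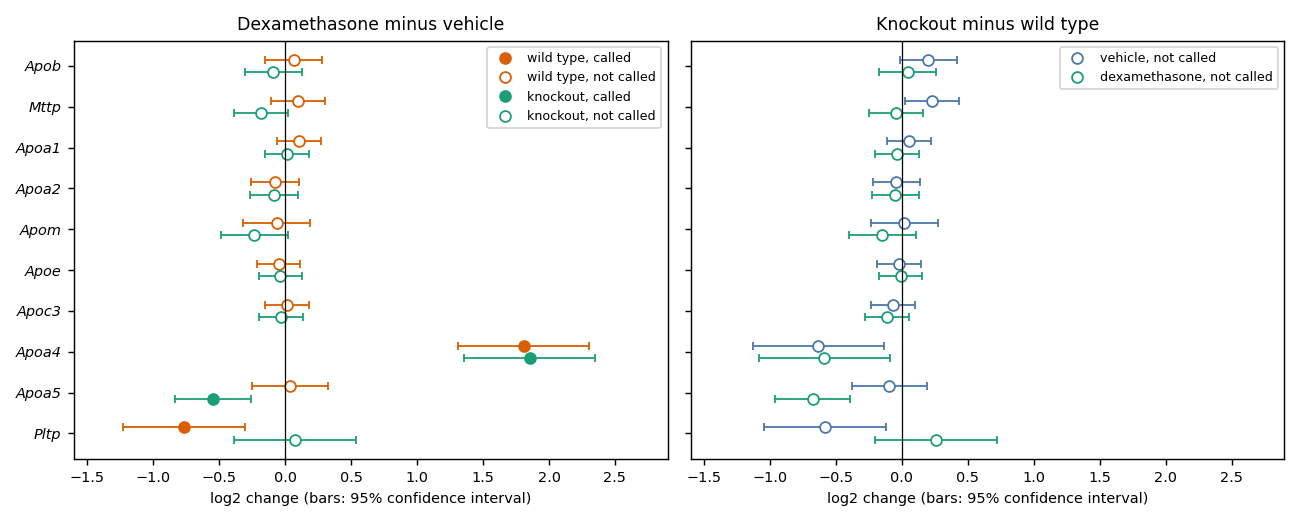
Log2 change of each gene with its 95% confidence interval from limma; left, dexamethasone minus vehicle in each genotype; right, knockout minus wild type under each treatment. Filled circles passed the threshold, open circles did not; Apoa4 stands at 1.81 and 1.85 on the left, and no circle is filled on the right.

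The assembly genes showed no called change. Apob encodes the single large protein that scaffolds each VLDL particle, and Mttp encodes the transfer protein that loads lipid onto it in the endoplasmic reticulum. Apob was at 12.12 ± 0.18 (SD) in wild-type vehicle livers, 12.19 ± 0.10 with dexamethasone, 12.33 ± 0.05 in knockout vehicle livers and 12.24 ± 0.06 with dexamethasone. Its dexamethasone changes were 0.07 ± 0.10 (SE) in wild type and -0.09 ± 0.10 in the knockout. Mttp was at 9.76 ± 0.10, 9.85 ± 0.15, 9.99 ± 0.05 and 9.81 ± 0.06 in the same order. The 3 knockout vehicle arrays, at 9.93 to 10.03, lay above the 3 wild-type vehicle arrays, at 9.65 to 9.83, yet the difference of 0.23 ± 0.09 missed the threshold (limma adjusted p = 0.644). They also lay above the 3 knockout dexamethasone arrays (9.76 to 9.87), a change of -0.18 ± 0.09 with a limma adjusted p of 0.355. Across the 12 arrays Apob ranged over 0.44 and Mttp over 0.39 log2 units.

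No change in the genes of HDL proteins was called between groups. Apoa1, the main structural protein of HDL, had group means of 12.71 ± 0.04, 12.81 ± 0.07, 12.76 ± 0.01 and 12.77 ± 0.03, in the order wild-type vehicle, wild-type dexamethasone, knockout vehicle, knockout dexamethasone. Apoa2, the second major HDL protein, was at 12.85 ± 0.10, 12.77 ± 0.05, 12.81 ± 0.01 and 12.72 ± 0.07. Apom, which carries sphingosine-1-phosphate on HDL, was at 9.58 ± 0.13, 9.52 ± 0.15, 9.60 ± 0.13 and 9.37 ± 0.17. Its 3 knockout dexamethasone arrays (9.17 to 9.50) lay just below the 3 knockout vehicle arrays (9.53 to 9.75), a change of -0.23 ± 0.12 with a limma adjusted p of 0.325. In the other comparisons of these 3 genes between 2 groups the arrays overlapped.

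Apoe, the ligand through which remnant particles are taken up by receptors, was the steadiest member, with arrays at 12.86 to 13.02 and dexamethasone changes of -0.05 ± 0.08 (wild type) and -0.04 ± 0.08 (knockout). Its knockout arrays did not overlap between treatments, yet that change was uncalled (limma adjusted p = 0.889). Apoc3, which slows lipoprotein lipase and remnant uptake, had arrays at 12.23 to 12.42 and changes of 0.01 ± 0.08 and -0.03 ± 0.08. Under dexamethasone the 3 knockout arrays of Apoc3 (12.23 to 12.28) lay below the 3 wild-type arrays (12.34 to 12.38), a difference of -0.11 ± 0.08 with a limma adjusted p of 0.713. For these 7 genes the 95% confidence intervals of the dexamethasone changes reached no lower than -0.49 (Apom in the knockout) and no higher than 0.30 (Mttp in wild type). Apoa1, Apoa2, Apob, Apoc3 and Apoe lay at 11.93 to 13.02, near the arrays' highest values of 13.42 to 13.50; whether the scale is compressed there was not tested.

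Apoa4 rose 3.50-fold with dexamethasone in wild type and 3.61-fold in the knockout. It encodes apolipoprotein A-IV, a lipid-binding protein of HDL and of triglyceride-rich particles, which mouse liver makes in larger amounts when loaded with fat. In wild-type vehicle livers the 3 arrays read 9.01, 9.05 and 8.53, and with dexamethasone 10.41, 11.10 and 10.50. In knockout vehicle livers they read 8.21, 8.15 and 8.33, and with dexamethasone 9.95, 10.62 and 9.69. Every dexamethasone array lay above every vehicle array of either genotype. The log2 changes were 1.81 ± 0.23 (SE) in wild type (limma adjusted p = 0.000204) and 1.85 ± 0.23 in the knockout (limma adjusted p = 0.000181). Among all genes tested, that was the 74th largest increase in wild type and the 78th in the knockout. Without the 4 arrays with pancreas transcripts the changes were 2.22 ± 0.36 (limma adjusted p = 0.0129) and 1.90 ± 0.27 (limma adjusted p = 0.00348).

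The rise of Apoa4 had nearly the same size in both genotypes. The difference of the 2 responses, knockout minus wild type, was 0.05 ± 0.32 with a 95% confidence interval of -0.65 to 0.74 (limma adjusted p = 0.991). Without the 4 arrays with pancreas transcripts it turned to -0.32 ± 0.45. The level in the knockout minus that in wild type was -0.63 ± 0.23 under vehicle, with no overlap of arrays (limma adjusted p = 0.592), and -0.59 ± 0.23 under dexamethasone, with overlap (limma adjusted p = 0.502). Neither passed over all genes; the unadjusted p-values from the same limma fit were 0.0161 and 0.0235. Without the 4 arrays with pancreas transcripts, 2 of them the highest wild-type vehicle arrays of Apoa4, the vehicle difference was -0.35 ± 0.36 and the other -0.67 ± 0.27. The difference in Apoa4 under dexamethasone was -0.37 without wild-type dexamethasone 2 and -0.39 without knockout dexamethasone 3.

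Apoa5 fell to 68.5% of its vehicle level with dexamethasone in the knockout. Its product, apolipoprotein A-V, helps lipoprotein lipase clear triglyceride from the circulation. The knockout vehicle arrays read 10.22, 10.30 and 10.32, and the knockout dexamethasone arrays 9.96, 9.61 and 9.64, without overlap. The change was -0.55 ± 0.13 with a limma adjusted p of 0.0209. In wild type the vehicle arrays read 10.35, 10.65 and 10.13 and the dexamethasone arrays 10.44, 10.52 and 10.28, which overlapped, for a change of 0.04 ± 0.13 (limma adjusted p = 0.914; -0.02 with arrays centred on their median). The lowest array of the other 3 groups, 10.13, lay above the highest knockout dexamethasone array, 9.96.

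The test of the difference between the Apoa5 responses gave -0.58 ± 0.19, with a 95% confidence interval of -0.99 to -0.18, an unadjusted p of 0.00842 and a limma adjusted p of 0.707. The call in the knockout and its absence in wild type are therefore not shown to differ over all genes tested. Under dexamethasone Apoa5 was lower in the knockout by -0.68 ± 0.13, the 26th smallest p of all genes tested (limma adjusted p = 0.133). Under vehicle the difference was -0.09 ± 0.13, and 0.13 ± 0.17 without the 4 arrays with pancreas transcripts. Without them the wild-type change was 0.345 ± 0.17, also uncalled, and the difference of the responses -0.87 ± 0.21. The call in the knockout was lost without knockout vehicle 2 (-0.53), knockout vehicle 3 (-0.52), knockout dexamethasone 2 (-0.48) or knockout dexamethasone 3 (-0.50), with adjusted p-values of 0.0666 to 0.0918, and held without the 4 arrays with pancreas transcripts (-0.52 ± 0.13, limma adjusted p = 0.0452).

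Pltp fell to 58.8% of its vehicle level with dexamethasone in wild type. It encodes the phospholipid transfer protein, which moves phospholipid from triglyceride-rich particles to HDL as they shrink. The wild-type vehicle arrays read 8.39, 9.08 and 8.46 and the dexamethasone arrays 7.79, 8.17 and 7.67, without overlap. The change was -0.76 ± 0.21 with a limma adjusted p of 0.0345. In the knockout the vehicle arrays read 8.07, 7.64 and 8.47 and the dexamethasone arrays 8.17, 7.99 and 8.25, which overlapped, for a change of 0.07 ± 0.21 (limma adjusted p = 0.923). The difference of the responses was 0.84 ± 0.30, with a 95% confidence interval of 0.18 to 1.49, an unadjusted p of 0.0160 and a limma adjusted p of 0.754.

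The highest Pltp value of the series, 9.08, was wild-type vehicle 2, and the highest knockout vehicle value, 8.47, was knockout vehicle 3, both arrays with pancreas transcripts. The wild-type call was lost without wild-type vehicle 2 (-0.55), wild-type dexamethasone 1 (-0.72) or wild-type dexamethasone 3 (-0.66), with array weights (-0.67) and with the replicate number as a block (-0.76, limma adjusted p = 0.0556). Without the 4 arrays with pancreas transcripts the change was -0.48 ± 0.22 (limma adjusted p = 0.352). Under vehicle the Pltp difference, knockout minus wild type, was -0.58 ± 0.21 (limma adjusted p = 0.598). It was -0.36 without wild-type vehicle 2, -0.37 without knockout vehicle 2 and -0.78 without knockout vehicle 3.

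Pltp is also made by macrophages, and markers of these cells are given here for the same arrays. The mean of 12 Kupffer cell and macrophage markers was 6.70 to 7.59 in wild-type vehicle arrays and 5.68 to 6.17 in wild-type dexamethasone arrays. Of the 12, 10 were called lower, against 6.95% of all genes. In the knockout the mean was 6.53 to 6.91 with vehicle and 6.36 to 7.24 with dexamethasone. There 0 of 12 were called, against 4.38% of all genes higher and 3.92% lower. Without the 4 arrays with pancreas transcripts the median change of these markers in wild type was -0.75, against -0.99 in all arrays. A single wild-type vehicle array then remained, so calls of the markers are not given for that fit. The part of these cells in the Pltp values was not tested, and in whole liver fewer cells of a type and less RNA per cell cannot be told apart. Within each of the 4 groups the array with the highest marker mean had the lowest Pltp value: wild-type vehicle 1 (markers 7.59, Pltp 8.39), wild-type dexamethasone 3 (6.17, 7.67), knockout vehicle 2 (6.91, 7.64) and knockout dexamethasone 2 (7.24, 7.99). The order of the 3 arrays was fully inverse in all of these groups but wild-type vehicle. These orders rest on 3 arrays per group and were not tested.

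**Figure D3:**
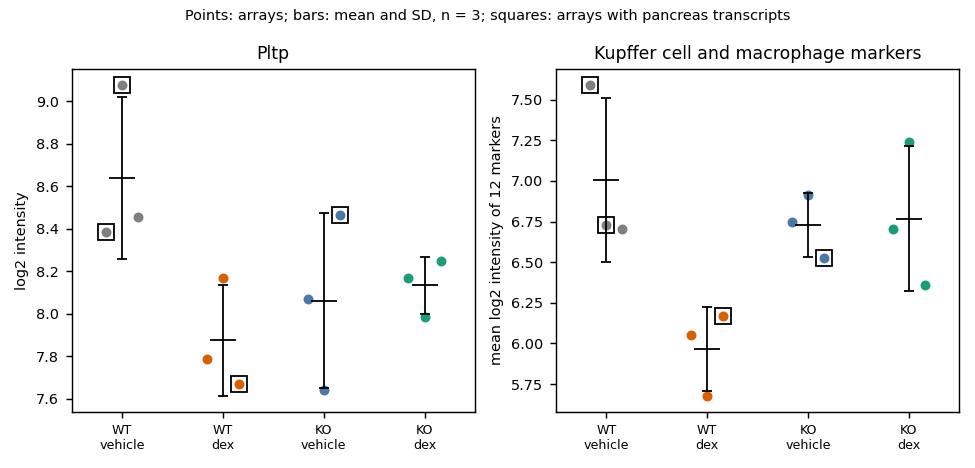
Left, log2 intensity of Pltp; right, mean log2 intensity of 12 Kupffer cell and macrophage markers, in the same 12 arrays. Points are arrays, bars the mean and SD (n = 3), and squares the 4 arrays with pancreas transcripts; in wild type the dexamethasone points lie below the vehicle points in both panels, and in the knockout they overlap; within each group the array highest in markers is lowest in Pltp.

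None of the 10 genes was called between the genotypes under either treatment, nor for the difference of their dexamethasone responses. Under vehicle 0 members were higher and 0 lower in limma, where 0.0391% and 0.0614% of all genes were called; 3 members (Apoa4, Mttp and Pltp) and 1288 of the 17904 genes had an unadjusted p under 0.05. Under dexamethasone the counts were again 0 and 0, against 0.0112% and 0.0168% of all genes, with 2 members (Apoa4 and Apoa5) and 1566 of the 17904 genes at an unadjusted p under 0.05. For the difference of the responses limma called 0 members and 0% of all genes; 2 members (Apoa5 and Pltp) and 1109 of the 17904 genes had an unadjusted p under 0.05.

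The cluster on chromosome 9 did not move as a unit. Apoa1 and Apoc3 flank Apoa4 on one side and Apoa5 on the other, and in wild type their dexamethasone changes were 0.11 ± 0.08, 0.01 ± 0.08, 1.81 ± 0.23 and 0.04 ± 0.13 in the order Apoa1, Apoc3, Apoa4, Apoa5. In the knockout they were 0.01 ± 0.08, -0.03 ± 0.08, 1.85 ± 0.23 and -0.55 ± 0.13. Of the 2 nearest protein-coding genes on each side, named for their position, Pafah1b2 rose in wild type by 0.36 ± 0.09 (limma adjusted p = 0.0176). Sik3, between Pafah1b2 and Apoa1, was at 0.22 ± 0.09 (limma adjusted p = 0.156). Beyond Apoa5, Zpr1 was at -0.09 ± 0.20 and Bud13 at -0.09 ± 0.16, both uncalled.

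**Figure D4:**
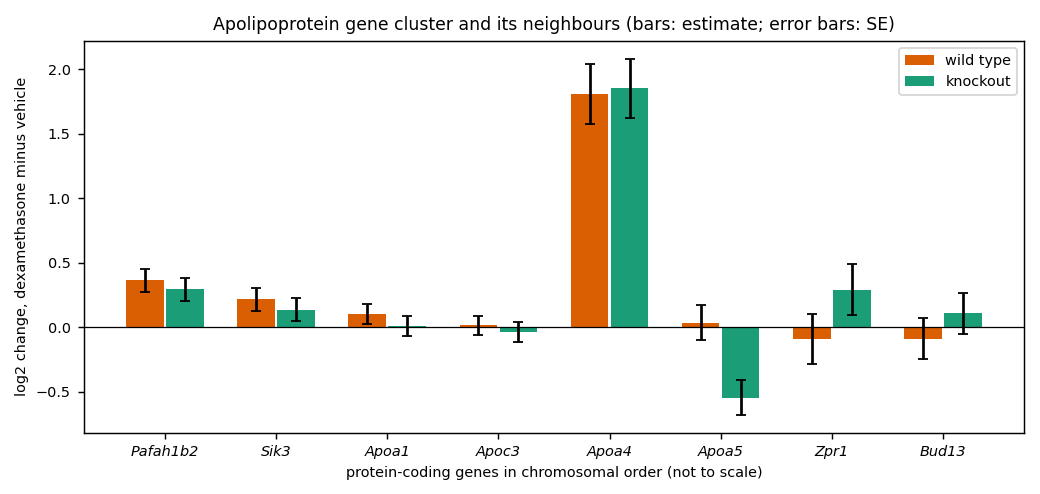
Log2 change with dexamethasone of the 4 apolipoprotein genes and the 2 nearest protein-coding genes on each side, in chromosomal order, in wild type and knockout. Bars are limma estimates and error bars their SE; Apoa4 stands at 1.81 and 1.85, Apoa5 at 0.04 and -0.55, and Pafah1b2, the other gene called, at 0.36 in wild type.

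The genes most like each responsive member across the 12 arrays were listed as a description. For Apoa4 they were Pfkfb2 (Pearson r = 0.965), Abcd4 (0.960) and Tns1 (0.959). These values follow the gap between vehicle and dexamethasone arrays, and after the group means were removed they were 0.717, 0.686 and 0.616. For Apoa5 they were Tlcd5 (0.877), Cyp2j6 (0.869) and 4930579K19Rik (0.855), with 0.924, 0.689 and 0.622 within groups. For Pltp they were Dhrs11 (0.896), Akap7 (0.891) and Bcl7b (0.890), with 0.788, 0.831 and 0.853 within groups. Each was picked as the highest among all genes tested over the same 12 arrays.

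Other genes of lipoprotein metabolism are given here by their step, as dexamethasone changes averaged over both genotypes (limma, SE). Over all genes tested, 4.57% were called higher and 6.95% lower in wild type, and 4.38% and 3.92% in the knockout. These shares stand beside the counts of every list below, and no list was tested against them. The fit to 8 arrays called fewer of all genes too, so calls lost there do not single out these lists. Of 9 genes tested for other apolipoproteins and related proteins, 2 were higher in each genotype and 0 lower. They were Saa1 (3.78 ± 0.24) and Saa4 (1.68 ± 0.10), which encode serum amyloid A proteins carried on HDL. Saa1 is an acute-phase gene with a near-identical copy, so its value is uncertain as to which copy it reads, while Saa4 is a divergent member of the family. Their counts were the same without the 4 arrays with pancreas transcripts. Of 16 genes of VLDL assembly and lipid supply, 0 were higher and 3 lower in wild type, and 1 was higher and 1 lower in the knockout (0 and 1 in each without those 4 arrays). Sort1, the sorting receptor sortilin, which binds apolipoprotein B inside the cell, was lower (-0.96 ± 0.13, limma adjusted p = 0.000133). Dgat2, which makes triglyceride, was higher (0.35 ± 0.08) and the carboxylesterase Ces1g lower (-0.63 ± 0.15), and both lost the call without those 4 arrays (0.32 and -0.60). By genotype Dgat2 was called only in the knockout and Ces1g only in wild type, and neither difference of the responses was called. The secretory receptor gene Mia2 (0.25 ± 0.08), uncalled in each genotype alone, lost its averaged call in 11 of 21 alternatives.

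Enzymes and their inhibitors that remodel particles in the circulation split in both directions. Of 11 tested, 3 were higher and 3 lower in wild type, and 2 were higher and 1 lower in the knockout (wild type 0 and 1, knockout 2 and 1, in the fit to 8 arrays). In the fit to 12 arrays the shares of all genes were 4.57% higher and 6.95% lower in wild type, and 4.38% and 3.92% in the knockout. Lipg, the endothelial lipase that acts on HDL phospholipid, rose (2.11 ± 0.19). Its group means went from 4.86 to 6.73 in wild type and from 4.32 to 6.67 in the knockout. Angptl4, which inhibits lipoprotein lipase, rose (1.00 ± 0.11), while Angptl8, a partner of such inhibitors that feeding induces, fell (-1.49 ± 0.18). Lpl, lipoprotein lipase itself, fell in the average (-0.79 ± 0.12). It was at -1.03 ± 0.16 in wild type and at -0.55 ± 0.16, uncalled, in the knockout. Of the cholesterol exporters, Abca1, which lipidates apolipoprotein A-I, rose (0.34 ± 0.06) and Abcg1 fell (-0.51 ± 0.10, uncalled at -0.40 without the 4 arrays). By genotype both were called in wild type only: Abca1 at 0.43 and 0.26, Abcg1 at -0.77 and -0.26, in wild type and knockout. For Lpl, Abca1 and Abcg1 the difference of the responses was uncalled.

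Of 8 receptor and clearance genes, 0 were higher and 1 lower in wild type and 1 was higher and 1 lower in the knockout, and 0 were called in either without the 4 arrays with pancreas transcripts. With all arrays the shares of all genes were 4.57% higher and 6.95% lower in wild type, and 4.38% and 3.92% in the knockout. Scarb1, the HDL receptor, was higher in the average (0.35 ± 0.07), and uncalled at 0.30 without the 4 arrays. By genotype it was called in the knockout only (0.41, beside 0.29 in wild type), and the difference of the responses was uncalled. Pdzk1, the adaptor that stabilises this receptor in liver, was lower (-0.51 ± 0.07). Mylip, a ligase that degrades lipoprotein receptors, was higher in the average (0.35 ± 0.09) and uncalled in each genotype alone.

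Regulators known to act on apolipoprotein genes changed in both directions. Of 19 tested, 2 were higher and 6 lower in wild type and 4 higher and 5 lower in the knockout (wild type 2 and 3, knockout 4 and 3, in the fit to 8 arrays). Of all genes, the fit to 12 arrays called 4.57% higher and 6.95% lower in wild type, and 4.38% and 3.92% in the knockout. Foxo1, a known activator of Apoc3 and Mttp, rose (1.20 ± 0.09), as did the coactivator Ppargc1a (1.09 ± 0.14). Nr1d1, a clock repressor known to act on Apoc3, fell (-3.15 ± 0.31), as did the nuclear receptor Nr2f2 (-1.08 ± 0.07), the sugar-sensing factor Mlxipl (-0.82 ± 0.09) and the lipogenic factor Srebf1 (-1.40 ± 0.18). Beside these, Apoc3 was at -0.01 ± 0.05 (limma adjusted p = 0.942) and Mttp at -0.04 ± 0.07 (limma adjusted p = 0.763). Creb3l3, a liver factor known to activate Apoa4, belongs to the VLDL assembly list and was named for that role after its values were seen. Creb3l3 was at 0.03 ± 0.10 (limma adjusted p = 0.893), and Apoa4 at 1.83 ± 0.16. Hnf4a, of the regulator list and also named after its values were seen, was higher at 0.39 ± 0.08 (limma adjusted p = 0.00279). By genotype Hnf4a was called in the knockout (0.45 ± 0.11) and not in wild type (0.33 ± 0.11), and the difference of the responses was uncalled. These are transcript levels, and the part of any of these regulators in the levels of Apoa4, Apoc3 or Mttp was not tested.

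**Figure D5:**
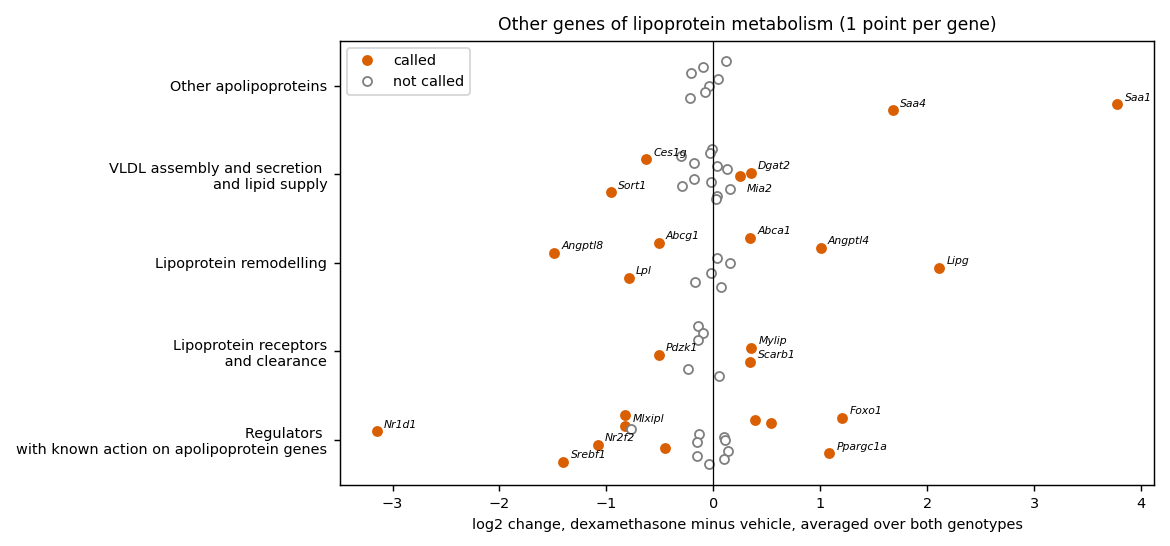
Dexamethasone change averaged over both genotypes for genes of 5 other groups of lipoprotein metabolism, 1 point per gene. Filled points passed the limma threshold over all genes, and the called genes named in the text, except Hnf4a, are labelled. Changes run from -3.15 (Nr1d1) to 3.78 (Saa1).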

How the data were processed

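The deposited values are log2 intensities, 1 column per array and 34760 probe sets, which the authors made; the submitters' processing notes name R 2.10.0 and affy. The log2 base follows from their range of 0.927 to 13.5. The steps of background correction, normalisation and summarisation are not given in the sources used here, and the array number limits the precision. Gene symbols came from the platform annotation supplied with the series (21640 probe sets with 1 symbol, 1321 with several, 11799 with none). The probe set with the highest mean stood for a gene, and genes above the 20th percentile of their array in at least 3 arrays were kept.

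Group means of all 12 arrays were fitted with limma 3.58.1 in R 4.3.3, with moderated variances (8 residual and 5.07 prior degrees of freedom) and Benjamini-Hochberg adjustment over 17904 genes in each of 6 comparisons. The fit was tested on simulated data. The members, gene lists, tests and alternatives were chosen with earlier results of these data known. All 10 members are named. Of each further list at most 6 genes with the smallest p in the averaged dexamethasone effect are named, and for responsive members the 3 most correlated genes. Creb3l3 and Hnf4a were named outside this rule. Listed genes without a value here were not analysed. Replicate numbers shared by the groups were not taken to pair the animals. The correlations of same-numbered arrays' deviations ran from -0.537 to 0.356, and those of differently numbered arrays from -0.349 to 0.399. These ranges cannot exclude a shared batch. Upstream sequences are RefSeq's.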

Additional observations from a re-analysis of the deposited data

How the results depend on the processing

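Fewer or more genes on the low-value filter, 2 other scalings between arrays, another variance model, array weights, averaging of probe sets, a replicate block, a fit to only the groups compared, omission of each array and omission of the 4 arrays with pancreas transcripts were tried. Apoa4 kept its direction and call under every one, at 1.59 to 2.22 in wild type and 1.59 to 2.05 in the knockout. Apoa5 in the knockout kept its direction, at -0.66 to -0.48, and its call in 18 of 22 alternatives. Pltp in wild type did so at -0.91 to -0.48, with its call in 16 of 22. Members called in wild type numbered 1 instead of 2 with array weights, with the replicate block and without the 4 arrays with pancreas transcripts. Leaving out single arrays gave 1 to 2 called members in wild type, in the knockout and in the average, where Apoa5 joined Apoa4 without wild-type vehicle 3 or knockout dexamethasone 1. In the genotype comparisons and the difference of responses 0 members were called in any alternative. Without the 4 arrays 558 genes were called in wild type against 2064, and 1695 against 3085 in the average; fewer arrays were fitted. The replicate block changed no member's call except that of Pltp, and of the deviations 1 of 12 arrays correlated best with its own number. The cause of the lost calls was not tested.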
